A study of Saccharomyces cerevisiae with 4 samples.

Results

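The genes described here are the 10 core genes of the yeast cell wall integrity pathway, chosen by their locus IDs from the 6484 features of the authors' deposited table. They comprise the cell surface sensors WSC1 (YOR008C, named SLG1 in the R64 annotation), WSC2 (YNL283C), WSC3 (YOL105C) and MID2 (YLR332W), the kinases PKC1 (YBL105C), BCK1 (YJL095W), MKK1 (YOR231W), MKK2 (YPL140C) and SLT2 (YHR030C), and the transcription factor RLM1 (YPL089C). All 10 were listed and all passed the filter on low values. The study sequenced RNA of 2 strains of Saccharomyces cerevisiae, each in 2 libraries labelled as replicates. One strain has the genotype BGL-6Kl; ΔYGP1 and is called the deletion strain below. The other is its parent BGL-6Kl. By these labels the strains differ in YGP1, and the rest of what BGL-6Kl carries is taken as shared. Whether they differ elsewhere was not tested. Both were grown without treatment in rich glucose medium (YPD) at 30 °C and 200 rpm, and RNA was taken at 48 h. No independently made deletion strain is among the samples.

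The cell wall integrity pathway tells a yeast cell that its wall is stretched or weakened. The Wsc proteins and Mid2 span the plasma membrane and reach into the wall, and through exchange factors they activate the small GTPase Rho1. Rho1 activates the protein kinase C homologue Pkc1, which signals through a MAP kinase cascade of Bck1, the redundant pair Mkk1 and Mkk2, and the MAP kinase Slt2, also called Mpk1. Slt2 phosphorylates Rlm1, a MADS-box transcription factor that activates many cell wall genes. The pathway acts largely by phosphorylation, which RNA levels do not measure.

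Values are the authors' normalised read counts. The deposited table gives 1 mean per strain. From the arithmetic of these means the whole reads behind them could be worked out per library for 6184 features, including all 10 genes. In each strain library A is the deeper and library B the shallower one, and neither letter stands for a labelled replicate number. Fold changes below are those of the authors' deposited table, deletion strain over BGL-6Kl, unless limma is named. YGP1, which encodes a secreted glycoprotein, averaged 18171 in the deletion strain and 62470 in BGL-6Kl (log2 fold change -1.78, adjusted p = 2.88e-08 per the authors' deposited table), so the labelled gene was lower but not at 0. Where along YGP1 these reads fall is not known from the table, so the label is checked only in part, and the name deletion strain follows the label. Its libraries could not be recovered, since 3 pairs of whole reads match the mean in each strain. For 5267 features counted 50 times or more in every library, the deletion libraries differed by a median of 0.28 (absolute log2 difference). The BGL-6Kl libraries differed by 0.18. The log2 averages of the 2 libraries per strain differed by 0.47 between the strains, which is not a difference between single libraries. BGL-6Kl library A correlated with both deletion libraries at 0.910 across these features, and BGL-6Kl library B at 0.876 and 0.878. These are bulk RNA measurements, in which a lower level in every cell and loss of the RNA from some of the cells cannot be told apart.

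Of the 10 genes, the deletion strain had more MKK1 RNA and less WSC3 and SLT2 RNA than BGL-6Kl. The authors' deposited table called these 3 at an adjusted p below 0.05, 1 higher and 2 lower. Over all listed features the share called was 20%, with 9.65% higher and 10.3% lower, so 3 of 10 genes is a share near the background. All 3 also differed at least 2-fold, and 13.7% of all listed features were both called and at least 2-fold different. The median log2 fold change of the 10 genes was 0.42, against 0.04 over all 6484 listed features, where the 76 features at 0 in BGL-6Kl were ranked as highest. The deletion libraries did not overlap the BGL-6Kl libraries for 8 of the 10 genes, 6 higher and 2 lower, and the same held for 66.2% of all recovered features, with 33.2% higher and 33% lower. A limma fit to the recovered libraries gave standard errors and called 5 of the 10 genes, adding WSC2 and BCK1 as higher to these 3. Of the 6116 features it tested it called 28.7%, with 13.8% higher and 14.9% lower. It used the same 4 libraries and is no separate check.

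**Figure D1:**
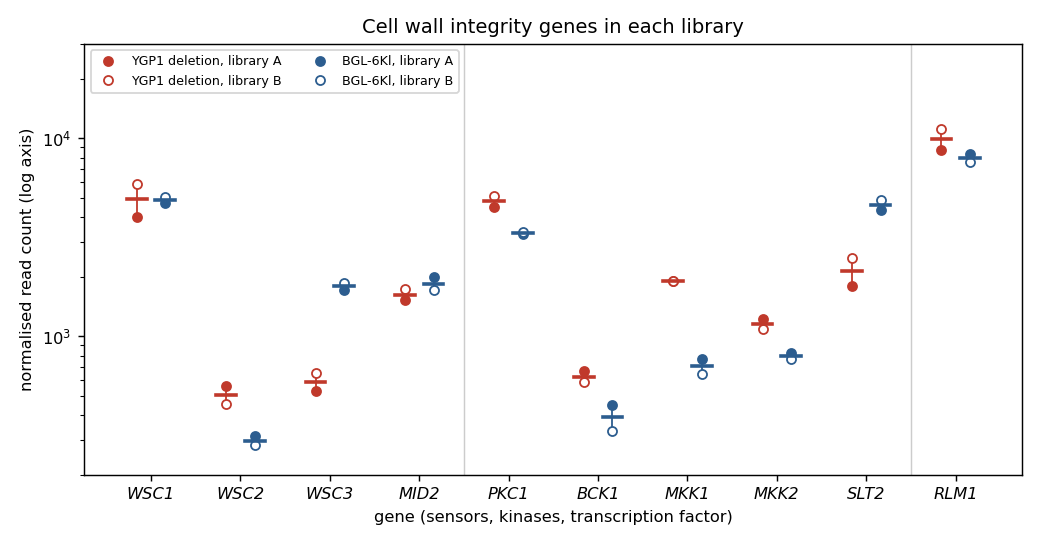
Normalised read count (log axis) of each gene in the 4 libraries, with deletion libraries in red left of BGL-6Kl libraries in blue; filled points are library A, open points library B, and short bars the strain mean. WSC3 and SLT2 lie lower and MKK1 lies higher in both deletion libraries, while the libraries of WSC1 and MID2 overlap between the strains.

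Of the 4 sensors, WSC3 alone was called in the authors' deposited table. WSC3 had 527 and 653 normalised reads in deletion libraries A and B, against 1716 and 1865 in BGL-6Kl libraries A and B. Both deletion libraries were well below both BGL-6Kl libraries, and the gap was several times the difference between the libraries of either strain. WSC3 fell 3.04-fold (log2 fold change -1.60, adjusted p = 2.61e-06 per the authors' deposited table), and limma put the log2 change at -1.61 (SE 0.21, adjusted p = 0.000717).

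WSC2, the duplicate of WSC3 from the ancient genome duplication, had 562 and 453 normalised reads in the deletion libraries and 313 and 283 in those of BGL-6Kl. Its deletion libraries were both higher, but the difference of 0.77 on the log2 scale missed the threshold (adjusted p = 0.0667 per the authors' deposited table). In the limma fit it passed, with a log2 change of 0.76 (SE 0.24, adjusted p = 0.0337). Whether WSC2 was called thus depended on the test.

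WSC1, the sensor best known for its part in the response to heat and wall damage, had 4023 and 5858 normalised reads in the deletion libraries and 4719 and 5052 in the BGL-6Kl libraries. The deletion libraries lay on either side of both BGL-6Kl libraries. The log2 fold change was 0.02 (adjusted p = 0.981 per the authors' deposited table). Limma gave a 95% interval of -0.52 to 0.51 for the log2 change, which leaves room for a difference of that size in either direction.

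MID2, a sensor linked to wall stress and to survival during mating, had 1519 and 1729 normalised reads in the deletion strain and 1990.4 and 1708 in BGL-6Kl. The ranges overlapped, and the log2 fold change was -0.19 (adjusted p = 0.679 per the authors' deposited table, limma 95% interval -0.64 to 0.27). In the R64 annotation MID2 overlaps JIP3, a reading frame on the opposite strand, over 371 of the 378 bases of JIP3. JIP3 itself had means of only 0.444 in the deletion strain and 6.66 in BGL-6Kl. How reads in the shared stretch were assigned is not given, so the MID2 level carries that uncertainty. None of the other 9 genes overlaps an annotated gene there.

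Along the cascade, 4 of the 5 kinases had log2 fold changes above 0 and the last, SLT2, had one below 0. Of the 5, the authors' deposited table called only MKK1 and SLT2. Over all 6484 listed features, 3351 had log2 fold changes above 0. PKC1, at the head of the cascade, had 4514 and 5142 normalised reads in the deletion libraries and 3308 and 3382 in those of BGL-6Kl. Both deletion libraries were higher, yet the difference did not pass (log2 fold change 0.53, adjusted p = 0.191 per the authors' deposited table). Limma gave a log2 change of 0.53 (SE 0.20, adjusted p = 0.0737).

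BCK1, the MAP kinase kinase kinase, had 666 and 589 normalised reads in the deletion libraries and 449 and 331 in the BGL-6Kl libraries. The strains did not overlap. Yet the 2 BGL-6Kl libraries differed from each other by about as much as BGL-6Kl library A did from deletion library B. The log2 fold change of 0.68 missed the authors' threshold (adjusted p = 0.110 per the authors' deposited table). In limma it was 0.70 (SE 0.24) with an adjusted p of 0.0499, at the edge of the threshold.

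MKK1, a MAP kinase kinase, had 1907 and 1901 normalised reads in the deletion libraries, against 767 and 649 in those of BGL-6Kl. The deletion libraries were almost identical, and both were far above the BGL-6Kl libraries. MKK1 rose 2.69-fold (log2 fold change 1.43, adjusted p = 4.33e-05 per the authors' deposited table, limma SE 0.20 and adjusted p = 0.00103).

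MKK2, whose product shares the step with Mkk1, had 1223 and 1096 normalised reads in the deletion libraries and 829 and 767 in the BGL-6Kl libraries. Again both deletion libraries were higher, without passing the test (log2 fold change 0.54, adjusted p = 0.187 per the authors' deposited table, limma 95% interval 0.09 to 0.99 and adjusted p = 0.0713).

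SLT2, the MAP kinase on which the cascade converges, had 1799.9 and 2501 normalised reads in the deletion libraries and 4373 and 4885 in those of BGL-6Kl. Both deletion libraries were below both BGL-6Kl libraries. SLT2 fell 2.15-fold (log2 fold change -1.11, adjusted p = 0.00087 per the authors' deposited table, limma log2 change -1.12, SE 0.22, adjusted p = 0.00494). Without the intensity trend the limma call was lost, at an adjusted p of 0.0524.

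RLM1, the transcription factor at the end of the cascade, had 8711 and 11102 normalised reads in the deletion strain and 8376 and 7608 in BGL-6Kl. The lowest deletion library was barely above the highest BGL-6Kl library, and the difference did not pass (log2 fold change 0.31, adjusted p = 0.553 per the authors' deposited table, limma 95% interval -0.19 to 0.80). RLM1 RNA was abundant in both strains: its mean stood at the 94.5th percentile of all features in the deletion strain and at the 92.5th in BGL-6Kl.

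**Figure D2:**
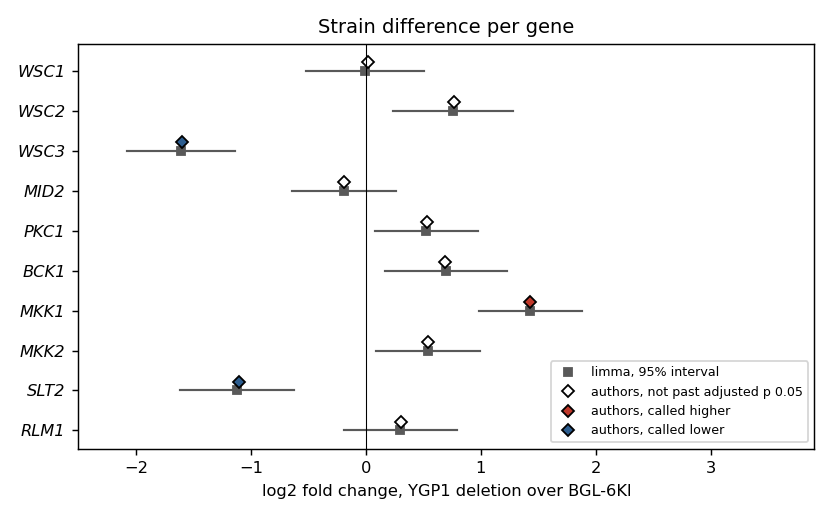
Log2 fold change of each gene, deletion strain over BGL-6Kl. Grey squares with lines are limma estimates with their 95% intervals, diamonds are the authors' values, red where called higher, blue where called lower and white where not called. WSC3 and SLT2 lie below 0, MKK1 lies above 0, and the intervals of WSC1, MID2 and RLM1 span 0.

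To compare levels between genes, mean normalised read counts were divided by coding length. On this scale RLM1 led in the deletion strain with 4878 per kb, and WSC1 followed with 4345 per kb. In BGL-6Kl the order was reversed, with 3935 per kb for RLM1 and 4297 per kb for WSC1. Not divided by length, RLM1 ranked 1 and WSC1 ranked 2 in both strains, so the reversal rests on the scale. RLM1 was above WSC1 in each deletion library and below it in each BGL-6Kl library, but the ranges of both genes overlapped in the deletion strain and nearly met in BGL-6Kl (4124 per kb at most for RLM1, 4151 per kb at least for WSC1). SLT2 came next in both strains, at 1478 per kb in the deletion strain and 3181 per kb in BGL-6Kl.

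In the deletion strain SLT2 stood close to MID2 (1436 per kb), PKC1 (1397 per kb) and MKK1 (1247 per kb), all of which lay within the range of its own libraries (1237 and 1719 per kb). In BGL-6Kl SLT2 stood well above the next gene, MID2, at 1635 per kb, and its lower library of 3006 per kb exceeded the higher MID2 library of 1760 per kb. MKK2 had 762 per kb in the deletion strain and 524 per kb in BGL-6Kl. WSC3 ranked 8 of 10 in the deletion strain at 353 per kb, just above WSC2 at 336 per kb with overlapping libraries. In BGL-6Kl it ranked 5 at 1071 per kb, and WSC2 ranked 9 at 197 per kb. BCK1 was the lowest of the 10 per length in both strains, at 141 per kb in the deletion strain and 87.9 per kb in BGL-6Kl.

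Summed per length, the 10 genes came to a mean of 16373 per kb in the deletion strain and 16361 per kb in BGL-6Kl. The deletion libraries, at 14603 and 18143 per kb, lay on either side of the BGL-6Kl libraries at 16379 and 16342 per kb, so the close means hide a spread between the deletion libraries. The division of the total among the genes differed between the strains. SLT2 made up 29.4% of the summed level of the 5 kinases in the deletion strain (26.1% and 32.4% in the libraries), against 60.9% in BGL-6Kl (58.8% and 62.9%). MKK1 made up 24.8% of it in the deletion strain (26.3% and 23.5%) and 8.87% in BGL-6Kl (9.83% and 7.96%). The kinase sum itself was 5025 per kb in the deletion strain and 5225 per kb in BGL-6Kl. Among the 4 sensors, WSC3 held 5.46% of the summed level in the deletion strain (5.66% and 5.30%) and 14.9% in BGL-6Kl (14.4% and 15.4%). WSC1 held the greatest share of this sum in both strains, 67.2% in the deletion strain and 59.7% in BGL-6Kl. The sum leaves out the further sensors MTL1 and WSC4. MTL1 had 3180 per kb in the deletion strain and 4267 per kb in BGL-6Kl, and WSC4 had 84.8 and 94.6 per kb.

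**Figure D3:**
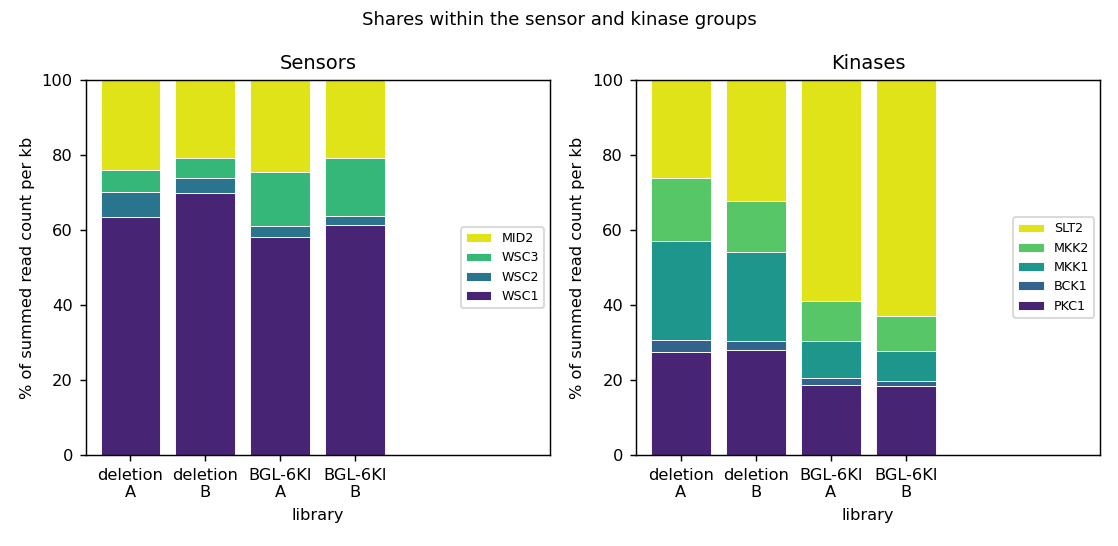
Share of each gene (% of the summed normalised read count per kb of coding length) among the 4 sensors on the left and the 5 kinases on the right, one bar per library, deletion libraries left of BGL-6Kl libraries. SLT2 takes 26.1% and 32.4% of the kinase sum in the deletion libraries and 58.8% and 62.9% in the BGL-6Kl libraries.

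The duplicate pairs shifted within themselves. The ratio of WSC3 to WSC2 per kb was 0.849 and 1.30 in the deletion libraries and 4.97 and 5.96 in the BGL-6Kl libraries, so that the pair was near parity in the deletion strain and WSC3 predominated in BGL-6Kl. For MKK1 over MKK2 the ratio was 1.55 and 1.73 in the deletion libraries and 0.922 and 0.842 in the BGL-6Kl libraries. MKK1 was thus the more abundant of the pair in the deletion strain and the less abundant in BGL-6Kl. The ratio of MKK1 to SLT2, a kinase to its substrate, was 1.01 and 0.724 in the deletion libraries and 0.167 and 0.127 in the BGL-6Kl libraries. None of these ratios overlapped between the strains. For WSC3 over WSC2 and MKK1 over SLT2 that was fixed by the genes' own values, which moved in opposite directions without overlap. With 2 libraries a strain the smallest 2-sided p of an exact permutation test is 0.333, so the ratios are given without a test.

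Of 23 other genes of the pathway, 3 fell and 0 rose in the authors' deposited table. That is 13.0% lower, near the 10.3% of all listed features, of which 9.65% were higher. Their median log2 fold change was -0.37, against 0.04 over all listed features. At an unadjusted p below 0.05 the authors' deposited table had 7 lower and 0 higher, while 16.6% of all listed features were lower and 15.3% higher. Limma called 5 lower and 0 higher of the 22 it tested, against 14.9% lower and 13.8% higher of all features it tested. Unadjusted, it had 7 lower and 2 higher, against 20.9% and 20.1%. BAG7, a GTPase-activating protein for Rho1, fell 3.83-fold, with 620 and 744 normalised reads in the deletion libraries and 2104 and 3115 in those of BGL-6Kl (adjusted p = 0.000693 per the authors' deposited table). The other Rho1 GTPase-activating proteins SAC7, BEM2 and LRG1 had log2 fold changes of -0.10, 0.61 and -0.52 and did not pass. PTP3, a phosphatase that acts on MAP kinases, fell 2.10-fold, with 424 and 398 in the deletion libraries and 938 and 786 in those of BGL-6Kl (adjusted p = 0.00539 per the authors' deposited table).

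ZEO1, which encodes a peripheral membrane protein that binds Mid2, fell 1.93-fold, to a mean of 22223 in the deletion strain against 42800.3 in BGL-6Kl (adjusted p = 0.00872 per the authors' deposited table). Its libraries were not recovered. RHO1 had 4930.5 and 5437 normalised reads in the deletion libraries and 7944 and 8143 in those of BGL-6Kl, below them without overlap, and its log2 fold change of -0.63 missed the threshold (adjusted p = 0.082 per the authors' deposited table) while limma called it (adjusted p = 0.0404). The Rho1 exchange factors ROM1, ROM2 and TUS1 had log2 fold changes between -0.21 and 0.04, and none of the 3 passed in either test. MTL1, the relative of MID2, and WSC4, a further WSC family gene, had log2 fold changes of -0.42 and -0.16 and did not pass.

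PTP2, the partner of PTP3, had 2867 and 2666 normalised reads in the deletion libraries and 4739 and 4390 in those of BGL-6Kl, and missed the threshold narrowly (log2 fold change -0.72, adjusted p = 0.0513 per the authors' deposited table, limma adjusted p = 0.0213). The phosphatases MSG5 and SDP1 had log2 fold changes of -0.37 and 0.59 and did not pass. SWI4, the DNA-binding subunit of the SBF factor that Slt2 also acts on, had 233 and 182 in the deletion libraries and 397 and 368 in those of BGL-6Kl (log2 fold change -0.88, adjusted p = 0.0592 per the authors' deposited table, limma adjusted p = 0.0231). Its partner SWI6 had a log2 fold change of 0.05. Both SWI6 libraries of BGL-6Kl lay between those of the deletion strain.

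The genes listed here as targets of Rlm1 were mostly lower in the deletion strain, while RLM1 RNA itself was not called. Of 15 such genes, 9 fell and 1 rose in the authors' deposited table, against 10.3% and 9.65% of all listed features. Their median log2 fold change was -0.94. This list was chosen with earlier results of these data known. Its share of calls is therefore no unbiased measure for Rlm1 targets at large. Among the 15, the largest falls were those of CWP1, a wall mannoprotein, 7.92-fold, and PIR1, a wall protein linked to glucan, 6.01-fold (adjusted p = 4.62e-21 and 1.94e-14 per the authors' deposited table). CWP1 had means of 5084 in the deletion strain and 40261 in BGL-6Kl. The BGL-6Kl libraries of CWP1 and PIR1 were not recovered, so their spread is not known. NCW2, which encodes a wall protein, fell 3.95-fold, PST1, a wall protein induced by damage, 2.74-fold, and CRH1, a chitin transglycosylase, 2.30-fold (adjusted p = 0.0268, 0.0134 and 0.000319 per the authors' deposited table).

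The values of CRH1 were 4094 and 4813 in the deletion libraries and 9156 and 11287 in those of BGL-6Kl, without overlap. The libraries of NCW2, at 2458 and 2658 in the deletion strain and 7280 and 12940 in BGL-6Kl, did not overlap, but those of BGL-6Kl stood far apart. The same held for PST1, at 10611 and 11484.5 in the deletion libraries and 23963 and 36631 in those of BGL-6Kl. CIS3, SED1, HSP150 and PIR3, all wall proteins, fell 2.13-fold, 2.02-fold, 1.92-fold and 1.80-fold (adjusted p between 0.00232 and 0.0252 per the authors' deposited table). The libraries of SED1, HSP150 and PIR3 were not recovered in either strain. FKS1, a catalytic subunit of glucan synthase, was the only one of the 15 called higher, 2.55-fold, with 3227 and 2682 in the deletion libraries and 1287 and 1034 in those of BGL-6Kl (adjusted p = 6.28e-05 per the authors' deposited table). BGL2, PRM5, DFG5, CHS3 and KDX1 had log2 fold changes between -0.75 and 0.03 and did not pass. KDX1, a pseudokinase paralog of SLT2 that the pathway is known to induce, had 828 and 899.8 in the deletion libraries and 1179 and 1436 in those of BGL-6Kl (adjusted p = 0.139 per the authors' deposited table), and it is counted among the 23 pathway genes as well. Reads were recovered for 9 of the 15 genes, and limma called 4 of these lower and 1 higher. Of all features it tested, limma called 14.9% lower and 13.8% higher.

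**Figure D4:**
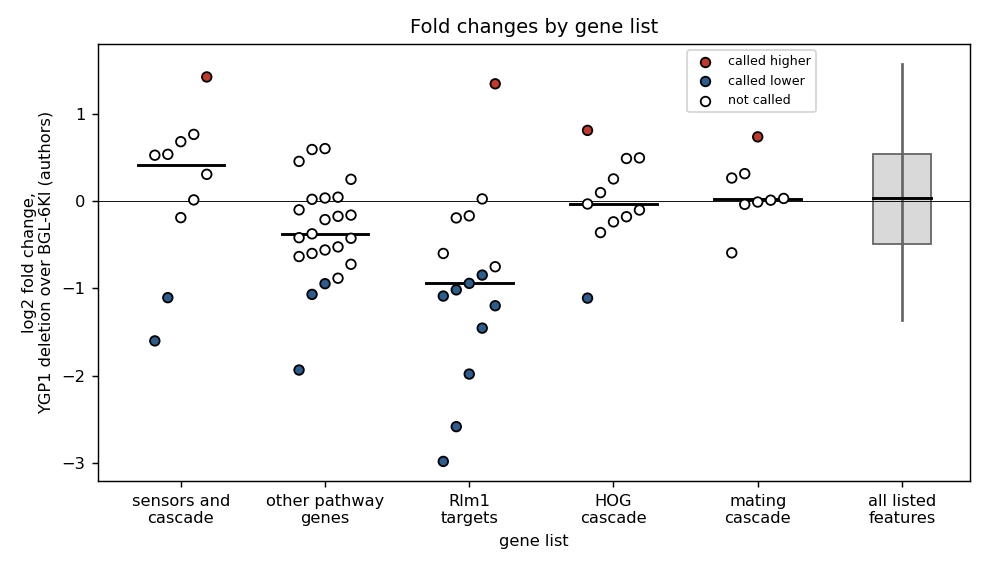
The authors' log2 fold change, deletion strain over BGL-6Kl, of each gene in 5 gene lists; points are genes, red where called higher, blue where called lower and white where not called, and horizontal bars are list medians. The box of all listed features spans the middle 50% and its line the 5th to 95th percentile; the Rlm1 targets have the lowest median, -0.94.

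Genes of the other MAP kinase cascades were set beside these. In the HOG cascade, which responds to high osmolarity, 1 of 11 genes rose and 1 fell in the authors' deposited table, with a median log2 fold change of -0.03. These shares of 9.09% each way are at the background of 9.65% higher and 10.3% lower. MSB2, a mucin-like sensor, was 1.76-fold higher (adjusted p = 0.0461 per the authors' deposited table), and the relay protein gene SSK1 was 2.16-fold lower (adjusted p = 0.00133 per the authors' deposited table). The kinase genes of that cascade, SSK2, SSK22, PBS2 and HOG1, had log2 fold changes between -0.24 and 0.26, and none was called. In the mating cascade 1 of 8 genes rose and 0 fell in the authors' deposited table, with a median of 0.02, and 12.5% called is likewise no more than the 20% of all listed features. The gene called was STE20, a kinase shared by several cascades, at 1.67-fold (adjusted p = 0.0494 per the authors' deposited table). At an unadjusted p below 0.05 the authors' deposited table had 0 lower mating genes, against 16.6% of all listed features. Limma called 0 lower, or 1 unadjusted, against 20.9% of the features it tested. The MAP kinase genes KSS1 and HOG1 had log2 fold changes of 0.27 and -0.24, beside -1.11 for SLT2. FUS3, the mating MAP kinase gene, had 251 and 971 normalised reads in the deletion libraries and 622 and 589 in those of BGL-6Kl. Its deletion libraries lay far apart on either side of BGL-6Kl, so the log2 fold change of 0.01 between the means rests on both: limma gave 0.68 without deletion library A, -1.27 without deletion library B, and a 95% interval of -1.34 to 0.76 with all 4 libraries. Whether the SLT2 difference exceeds those of the other MAP kinase genes was not tested.

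The features whose pattern over the 4 libraries was most like that of SLT2, by Euclidean distance of centred log2 values among 6115 features, were WHI4, PMP1 and BLS1, at distances of 0.05, 0.07 and 0.07. WHI4 had 1062 and 1450 normalised reads in the deletion libraries and 2502 and 2761 in those of BGL-6Kl. Like SLT2, all 3 were higher in deletion library B than in A and lower in both than in BGL-6Kl. That likeness follows from how they were chosen.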

How the data were processed

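Per the labels' protocols, RNA was extracted with TRIzol and sequenced from standard Illumina libraries. Which aligner, counter, genome build, annotation, strand setting and test were used is not given in the sources used. The signal deposited by the authors is the mean, per strain, of read counts divided by a size factor per library. The authors also deposited a log2 fold change (deletion strain over BGL-6Kl, matching the ratio of both means on that scale within 5e-05) and a p-value with its adjusted p-value, whose threshold of 0.05 is the main test here. Only strain means were deposited, so the design's description by the authors' values applies. No listed feature averaged 0 in the deletion strain, against 76 in BGL-6Kl.

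The reads of each library enter a strain mean in equal steps, 1 step size per library. Step sizes were estimated by least squares, and every pair of whole reads matching a mean within 0.55 units of its last digit was listed. A unique pair was found for 6197 features in the deletion strain and 6371 in BGL-6Kl. The size factors were 1.13 and 0.797 for deletion libraries A and B, and 1.16 and 0.964 for BGL-6Kl libraries A and B. The recovered reads summed to 10154385 and 7419301, and to 15024611 and 12585047. Most of the most abundant features are missing from these sums, so they do not compare depth between strains. The 10 genes had between 273 (WSC2) and 9800 (RLM1) reads in a library.

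Limma 3.58.1 in R 4.3.3 (moderated test, intensity trend, Benjamini-Hochberg over all 6116 features with a mean of at least 1) was fitted to log2(normalised read count + 1), a scale that understates changes of low features. Both steps were tested on simulated data. Nothing states that replicates came from separate cultures beyond the label biological, so p-values reflect only how far these libraries differed. R64 locus tags matched 5869 of 6484 features and served for names, overlaps and coding lengths only. The planned search of promoters for motifs was not run, since the build of the files is not known. The genes and lists were chosen with earlier results of these data known. Named genes are the 10 members, each gene of the 4 other lists past the threshold, and others for their role, which were chosen after their values were seen, and the 3 features nearest to SLT2.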

Additional observations from a re-analysis of the deposited data

How the results depend on the processing

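WSC3 and MKK1 kept their direction and passed in each of the 11 limma fits, with adjusted p-values up to 0.0372. SLT2 passed in 10 and missed in the fit without the intensity trend (0.0524). The authors' deposited table called 3 of the 10 genes and limma 5. Without the intensity trend limma called 2 of the 10 genes and 719 of all features, against 1758. When each library was left out in turn it called between 3 and 4 of the 10 genes and between 836 and 1949 features. The lowest values, 3 and 836, came without BGL-6Kl library B. PKC1 passed without deletion library A only (adjusted p = 0.0234), BCK1 passed in 3 of the 11 limma fits and WSC2 in 7. With limma in place of the authors' test, calls went to 5 of the 23 other pathway genes and to 5 of the 15 Rlm1 targets, of which only 9 had recovered reads. With a minimum of 2-fold the HOG cascade kept 1 call and the mating cascade 0, in the authors' deposited table. WSC1, which was not called, had a log2 change of -0.0083 in 6 of the limma fits, -0.011 with recomputed size factors, -0.28 without deletion library B and -0.057 without BGL-6Kl library A, opposite in sign to the authors' 0.02, but 0.26 without deletion library A and 0.04 without BGL-6Kl library B. Not divided by length, PKC1 ranked 3 and SLT2 4 of the 10 genes in the deletion strain, against 5 and 3 per length, and several other ranks moved by 1 or 2 places. Among the genes of the 4 other lists, limma without BGL-6Kl library B lost CRH1, PST1, MSB2, STE20, RHO1, PTP2 and SWI4. Their log2 changes there were -1.04, -1.12, 0.67, 0.58, -0.62, -0.78 and -0.94. Without BGL-6Kl library A it lost RHO1, PTP2 and SWI4, at -0.65, -0.67 and -0.84. SWI4 was also lost without deletion library B (-0.71) and STE20 without deletion library A (0.51). Where no construction explains a difference, the cause was not tested. The fits without 1 deletion library left out features with equal BGL-6Kl values. No paired analysis was possible because the deposited columns are strain means and carry no replicate numbers.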
